A study of Mus musculus with 6 samples.

Results

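Alpha and beta tubulin are the paired proteins from which microtubules are built, and mammals encode each of them in a family of isotype genes. The 10 genes described here were chosen by symbol. They were the alpha isotypes Tuba1a, Tuba1b, Tuba1c, Tuba4a and Tuba8 and the beta isotypes Tubb2a, Tubb2b, Tubb4b, Tubb5 and Tubb6, out of 33157 rows in the count table. The choice was made with the difference between the groups in view, so the tubulin values below are a description and no p-value is given for them. How many passed the threshold of the fit over all genes is stated as a count, which is no independent test. The cells were ILC3s, the type 3 innate lymphoid cells, which reside in the gut wall and make cytokines for its barrier. They were sorted from wild-type mouse small intestine as CD45+ Lineage- CD127+ KLRG1- cells with high CD90.2, and were kept in culture. All cultures received interferon-γ (IFN-γ), a cytokine of type 1 immunity, at 20 ng/mL for 4 h. The control group, named Ctrl in the labels, had IFN-γ alone, and the other group, Igf1, had IFN-γ with insulin-like growth factor 1 (IGF-1) at 200 ng/mL. There were 3 libraries in each group and no culture without IFN-γ. Whether replicate libraries stem from different animals or cultures is not stated, so the errors and p-values below describe library-to-library spread, possibly technical only.

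In the cell, an alpha and a beta chain are folded with the help of the TRiC chaperonin, prefoldin and a set of tubulin cofactors, and join into a dimer that adds to the ends of microtubules. Microtubules carry cargo on kinesin and dynein motors, place the organelles and form the mitotic spindle. In lymphocytes they also carry the centrosome and secretory granules to the site of contact with another cell. Tubulin mRNA is under a control of its own: when free dimer is in excess, the adaptor TTC5 binds the first residues of the growing tubulin chain on the ribosome and brings in SCAPER and the CCR4-NOT deadenylase, and the mRNA is degraded.

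That control reads the residues that the start of the coding sequence encodes. The opening 12 coding bases are therefore shown for the 9 members on chromosomes other than 18, from the GENCODE M21 transcripts. Capitals mark the fourth codon. It was TGC in the 5 alpha isotypes and ATC in the 4 beta isotypes shown.
Tuba1a: atgcgtgagTGC
Tuba1b: atgcgtgagTGC
Tuba1c: atgcgtgagTGC
Tuba4a: atgcgcgagTGC
Tuba8: atgagggaaTGC
Tubb2a: atgcgcgagATC
Tubb2b: atgcgagagATC
Tubb4b: atgagggagATC
Tubb5: atgagggaaATC

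Tuba1a, Tuba1b and Tuba1c lie on chromosome 15 (GRCm38), Tubb2a and Tubb2b on 13, Tuba4a on 1, Tuba8 on 6, Tubb4b on 2 and Tubb5 on 17. The isotypes of a family are close copies, which bears on how reads could be assigned to them. Over the coding sequence Tuba1a, Tuba1b and Tuba1c were 97.1% to 98.3% identical, and Tubb2a and Tubb2b 96.5%. In 50-base windows of the reference transcript, 73.8% of those of Tuba1b, 72.9% of Tuba1a and 61.0% of Tuba1c also occurred in a transcript of another gene. The share was 49.6% for Tubb2a and 50.9% for Tubb4b, whose windows were shared mostly with the pseudogene Tubb4b-ps1 (43.6%). Tuba4a (1.11%), Tuba8 (0.181%), Tubb5 (0.115%) and Tubb6 (0) had next to none. How multi-mapping reads were counted is not stated, so levels of the Tuba1 genes, the Tubb2 pair and Tubb4b are uncertain in a way that those of Tuba4a, Tuba8, Tubb5 and Tubb6 are not. The pseudogene rows held few counts: Tubb4b-ps1 had 43 to 86 per library and Tubb4b-ps2 had 4 to 43.

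Total counts were 32573713 to 39206449 per library. The ILC3 genes Kit (605 to 764 CPM), Il7r (365 to 478 CPM) and Il22 (190 to 354 CPM) were present in every library, where CPM is the count scaled to a common library size (counts per 1e6 on TMM-scaled library sizes). Markers of other cells were present too. The T cell list summed to 681 to 879 CPM in control and 627 to 818 CPM with IGF-1, nearly all of it Trbc2 (582 to 829 CPM). Cd4 was at 18.3 to 35.3 CPM. Of the T cell receptor subunits, Cd3g was at 4.30 to 15.6 CPM, Cd3d at 1.42 to 6.36 CPM and Cd3e at no more than 1.21 CPM. The ILC2 list, led by Gata3, was at 128 to 141 and 113 to 136 CPM, and the fibroblast, endothelial and glial list, led by Pecam1, at 93.8 to 120 and 84.1 to 94.8 CPM. Myeloid markers were at 15.7 to 22.6 and 18.9 to 25.4 CPM, and mast cell markers at no more than 1.02 CPM. Eomes, Klra8, Ms4a1, Mcpt1, Fcer1a, Krt19 and Elavl4 had 0 counts. Summed markers of ILC1s and natural killer cells were at 66.8 to 80.6 CPM in control and 107 to 130 CPM with IGF-1, and Ncr1, which ILC3s also express, made up much of this. Summed epithelial markers were at 33.9 to 48.7 and 16.4 to 24.1 CPM, most of it Epcam. Their part in the tubulin values was not tested. Control replicate 3 stood apart in the plasma cell gene Jchain, at 519 CPM against 0.103 to 0.209 CPM in the other 5 libraries, while the B cell gene Cd79b was at 17.2 to 35.6 CPM throughout. The summed nuclear long noncoding RNAs, led by Neat1 and Malat1, were lowest among controls in replicate 1 (1578 CPM against 2671 and 2860) and lowest with IGF-1 in replicate 2 (1160 CPM against 1677 and 2209). The median log2 fold change of the 4 tested was -0.41. Mitochondrially encoded genes summed to 15800 to 20400 CPM in control and 19700 to 23300 CPM with IGF-1, and 12 of 13 were positive, with a median of 0.16. The part of either in the tubulin values was not tested.

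The comparison asked how IGF-1 changes gene expression in ILC3s exposed to IFN-γ. Of the 10 tubulins, 9 passed the count filter, each with at least 1184 counts in every library, and Tubb2b did not. With IGF-1, 8 of the 9 had higher mean levels and Tubb2a a lower one. The log2 fold changes of IGF-1 over control ran from -0.44 for Tubb2a to 1.03 for Tubb6, with a median of 0.44, or 35.4% higher. The median over all 13483 genes tested was -0.01, and 48.7% of them were positive. Tuba1c, Tuba8 and Tubb6 were higher at an adjusted p under 0.05 in edgeR's quasi-likelihood fit, 3 of 9 (33.3%) where 0.230% of all genes were higher. In 6 of the 9 the IGF-1 libraries all lay above the control libraries, where 8.81% of all genes did. Because the members were picked with this difference known, nothing is read from these shares. The number called was 2 without control replicate 1 (Tuba8 and Tubb6) and 0 without any 1 of the other 5 libraries, while the log2 fold changes kept their signs. In bulk RNA, more cells of a kind and more RNA per cell cannot be told apart.

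**Figure D1:**
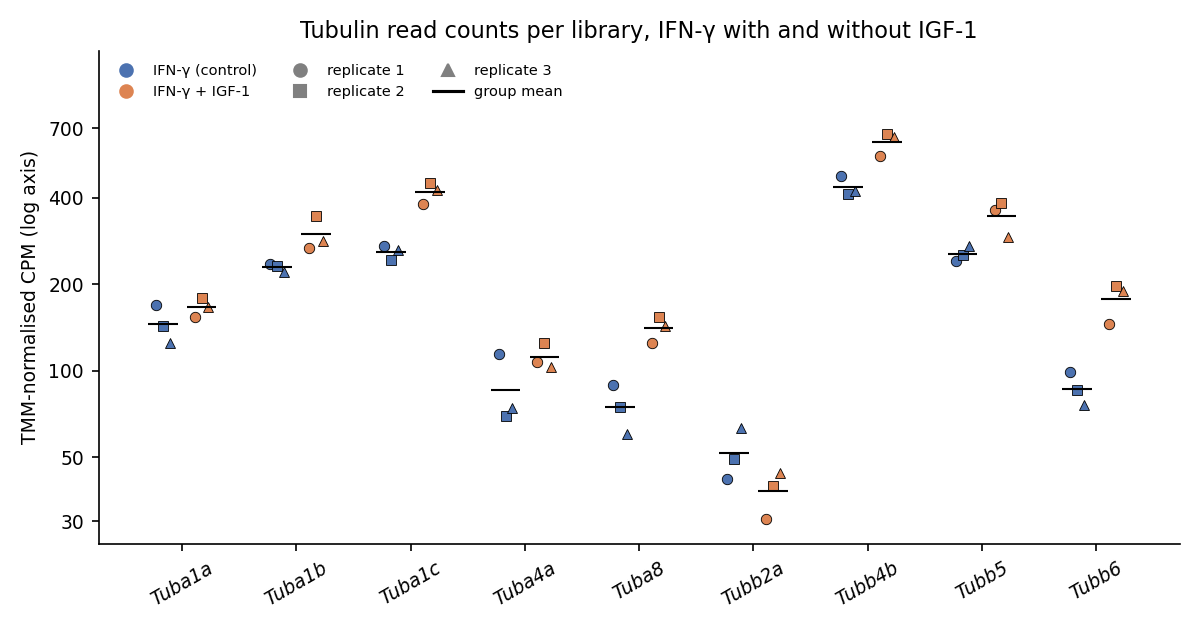
TMM-normalised CPM (log axis) of the 9 tubulin genes that passed the count filter, 1 point per library, with a bar at the mean of each group of 3. For Tuba1b, Tuba1c, Tuba8, Tubb4b, Tubb5 and Tubb6 the IGF-1 points all sit above the control points, and Tubb2a is the gene whose IGF-1 mean is the lower.

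Among the alpha isotypes, Tuba1b and Tuba1c are the ones that most dividing and non-neuronal cells use. Tuba1c was at 271, 243 and 263 CPM in control replicates 1 to 3 and at 380, 452 and 426 CPM with IGF-1. The groups did not overlap, and the lowest library with IGF-1 stood above the highest control. Its mean was 259 ± 14.4 (SD, n = 3) in control and 419 ± 36.7 CPM (n = 3) with IGF-1, a log2 fold change of 0.69 (SE 0.12). Tuba1b was at 236, 231 and 221 CPM in control and at 267, 345 and 284 CPM with IGF-1. Its groups did not overlap either, but the log2 fold change was smaller at 0.38 (SE 0.13), and the 3 libraries with IGF-1 were spread more widely than the controls (SD 41.0 against 7.70 CPM).

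Tuba1a, the alpha isotype best known from developing neurons, was at 169, 143 and 125 CPM in control and 154, 180 and 166 CPM with IGF-1. The groups overlapped, with control replicate 1 above 2 of the libraries with IGF-1. Its log2 fold change was 0.20 (SE 0.14), and it was 0.32 without control replicate 1 and 0.10 without control replicate 3. Tuba4a, an alpha isotype abundant in platelets, was at 115, 69.4 and 74.2 CPM in control and 107, 125 and 103 CPM with IGF-1. Control replicate 1 lay within the range of the IGF-1 group. The log2 fold change of Tuba4a was 0.37 (SE 0.19), 0.64 without control replicate 1 and 0.24 without control replicate 2.

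Tuba8 is the most divergent alpha isotype here in coding sequence, 79.1% to 81.0% identical to the others. It was at 89.1, 75.1 and 60.2 CPM in control and at 125, 153 and 144 CPM with IGF-1. No control library reached the IGF-1 range. The means were 74.8 ± 14.4 and 141 ± 14.3 CPM (n = 3 each), a log2 fold change of 0.91 (SE 0.16), or 88.2% higher. Among the 8565 tested genes with a mean of at least 10 CPM it had the 31st largest log2 fold change.

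Among the beta isotypes, Tubb4b and Tubb5 are the broadly used ones. Tubb4b was at 476, 412 and 421 CPM in control and at 558, 668 and 654 CPM with IGF-1. The groups did not overlap, and the means of 437 ± 34.4 and 627 ± 60.0 CPM gave a log2 fold change of 0.52 (SE 0.12). Tubb5, a beta tubulin common in dividing cells, was at 242, 253 and 272 CPM in control and at 362, 384 and 293 CPM with IGF-1. Its IGF-1 replicate 3 lay close to the controls, and the log2 fold change was 0.44 (SE 0.13).

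Tubb6 had the largest difference of the family. It was at 99.1, 85.5 and 75.8 CPM in control and at 146, 197 and 190 CPM with IGF-1. The groups were separated by more than the range of the controls. The means were 86.8 ± 11.7 and 178 ± 27.8 CPM (n = 3 each), a log2 fold change of 1.03 (SE 0.15), or 105% higher. It was 20th among the 8565 genes by log2 fold change. Without control replicate 3, the library with Jchain, the value for Tubb6 was 0.94, for Tuba8 0.78 and for Tuba1c 0.70.

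Tubb2a had the opposite sign. It was at 42.1, 49.5 and 63.2 CPM in control and at 30.5, 39.7 and 44.1 CPM with IGF-1. The groups overlapped, since IGF-1 replicate 3 was above control replicate 1. The log2 fold change was -0.44 (SE 0.19), and it was nearer to 0 when control replicate 3 (-0.27) or IGF-1 replicate 1 (-0.30) was left out. Its near copy Tubb2b had 3, 4 and 43 counts in control and 5, 35 and 6 with IGF-1, too few to test, with most of them in control replicate 3 and IGF-1 replicate 2.

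**Figure D2:**
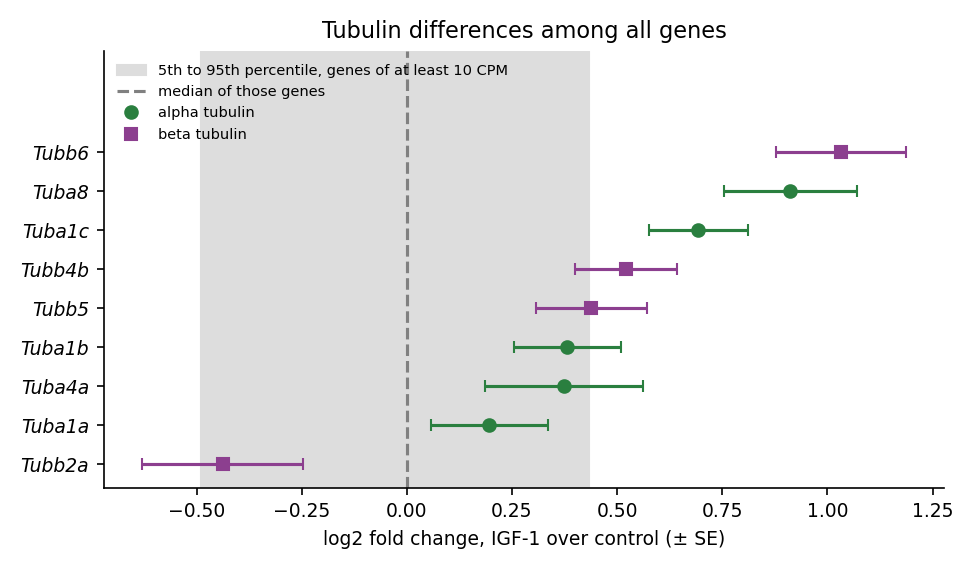
Log2 fold change of IGF-1 over control with its SE for each of the 9 tubulins (circles alpha, squares beta), over the 5th to 95th percentile (-0.49 to 0.43) and the median (0.00) of the 8565 genes with a mean of at least 10 CPM. Tubb6, Tuba8, Tuba1c, Tubb4b and Tubb5 lie past the upper edge of the band.

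Levels of different genes were compared per kilobase of exon. How reads shared between genes were counted is not stated. The order, sums, ratio and shares given per kilobase are therefore uncertain where they involve the Tuba1 genes, the Tubb2 pair or Tubb4b. In control the order was Tubb4b (273 ± 21.6 CPM per kb), Tuba1b (131 ± 4.42), Tuba1c (131 ± 7.25), Tubb5 (96.5 ± 5.77), Tuba1a (80.8 ± 12.3), Tubb6 (49.4 ± 6.66), Tuba8 (33.1 ± 6.38), Tubb2a (32.1 ± 6.63), Tuba4a (30.3 ± 8.72) and Tubb2b (0.214 ± 0.291). Tuba1b and Tuba1c did not differ beyond their spread, nor did Tuba8, Tubb2a and Tuba4a. With IGF-1 Tuba1c stood at 212 ± 18.5 and Tuba1b at 171 ± 23.5 CPM per kb, Tubb6 at 101 ± 15.8 next to Tuba1a at 92.5 ± 7.13, and Tubb2a at 23.7 ± 4.31 below Tuba4a at 39.3 ± 4.04.

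Summed over isotypes, the alpha and beta families differed between the groups by the same factor. The 5 alpha genes together were at 880, 762 and 743 CPM in control and at 1034, 1255 and 1123 CPM with IGF-1, a ratio of means of 1.43. The 5 beta genes were at 859, 800 and 834 CPM in control and 1096, 1290 and 1180 CPM with IGF-1, also a ratio of 1.43. Per kilobase the beta sum was 1.11 ± 0.06 times the alpha sum in control and 1.12 ± 0.03 times with IGF-1 (n = 3 each). This mRNA ratio overlapped between the groups while each sum did not. Its value depends on how shared reads were counted, which is not stated.

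The make-up within each family differed between the groups. Of the alpha sum per kilobase, Tuba1c held 32.3 ± 2.2% in control and 36.7 ± 0.96% with IGF-1, and Tuba8 8.09 ± 0.98% and 10.8 ± 0.31%, both without overlap. Tuba1a held 19.8 ± 1.5% and 16.1 ± 0.36%, lower without overlap, and Tuba1b (32.4% and 29.6%) and Tuba4a (7.38% and 6.82%) overlapped. Of the beta sum, Tubb6 held 10.9 ± 1.2% and 15.5 ± 1.3%, and Tubb2a 7.13 ± 1.6% and 3.64 ± 0.49%, both without overlap. Tubb4b, the largest part, held 60.5% in both groups. Shares of raw counts, with no scaling for length, gave the same signs.

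**Figure D3:**
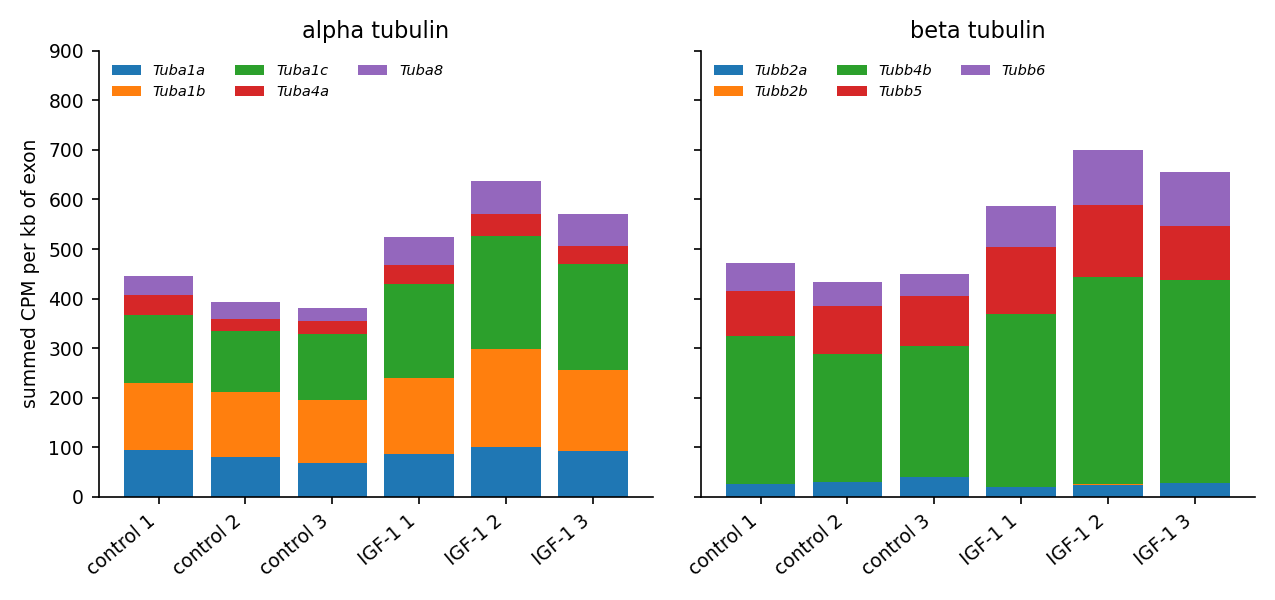
Stacked CPM per kilobase of exon for the alpha (left) and beta (right) tubulin genes, 1 bar per library. Each IGF-1 bar is taller than each control bar in both families, Tubb6 and Tuba1c take a larger part of it, and Tubb2a a smaller one.

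Most of the isotypes also varied together among libraries of the same group, which was not particular to the family. With the group means removed, log2 CPM of Tubb4b followed the mean of the other members over the 6 libraries with r = 0.90, Tuba1c and Tubb6 with 0.87, Tuba1b with 0.83, Tuba8 with 0.74, Tuba1a with 0.70 and Tuba4a with 0.60, while Tubb5 (-0.15) and Tubb2a (-0.23) did not. Genes outside the family followed the mean of the 9 tubulins as closely, such as Dph6 (0.95) and Ttll1 (0.94). Both were picked from 8359 genes for their likeness. The Tuba1 genes also share much sequence, and how shared reads were counted is not stated. These coefficients are a description over 6 points that share depth and library preparation. IGF-1 replicate 2 was the highest library for all 8 genes that had higher means. That library and control replicate 1, which was the highest control for 7 of these 8 genes (all but Tubb5), are the ones with the lowest nuclear noncoding RNA in their groups.

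The start regions of the genes are shown because 8 of the 9 members had higher means together and Tubb2a did not. RefSeq windows ran from 250 bases before to 50 after the start (build GRCm38.p6, while the counts used GRCm39). Only members on chromosomes other than 18 were looked up, which left out Tubb6. For Tubb2b none was found, so 8 of the 10 members had windows. They were searched on both strands for CCAAT (the NF-Y box), for GGGCGG (the GC box of Sp1), for CACGTG (the E-box of MYC) and for GTAAACA (FOXO). Matches to E2F-type sites were sought with TTCCCGC, and a further E2F-type string was TTGGCGC. The TATA box (TATAAA) and the core of the cAMP response element (TGACGT) were added after the windows had been seen. CCAAT was in 4 of the 8 windows (37.4% of all 32851 promoter windows hold it), GGGCGG in 6 (35.7%), CACGTG in 2 (7.15%), TATAAA in 2 (13.6%) and TGACGT in 1 (7.51%). GTAAACA (3.65%), TTCCCGC (4.60%) and TTGGCGC (2.45%) were in 0. The windows of 4 members follow, for the gene with the highest level (Tubb4b), Tuba1c and Tuba8 from among the higher genes, and Tubb2a, which had the opposite sign. Capitals mark the motif matches on either strand.
Tubb4b, chr2:25224653-25224952, minus strand: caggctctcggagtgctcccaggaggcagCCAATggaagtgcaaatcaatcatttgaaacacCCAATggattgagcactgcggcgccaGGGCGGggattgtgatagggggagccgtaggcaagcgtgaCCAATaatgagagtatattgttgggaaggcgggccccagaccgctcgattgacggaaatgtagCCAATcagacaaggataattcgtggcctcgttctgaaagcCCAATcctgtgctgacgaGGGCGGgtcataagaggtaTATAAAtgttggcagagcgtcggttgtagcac
Tuba1c, chr15:99029641-99029940, plus strand: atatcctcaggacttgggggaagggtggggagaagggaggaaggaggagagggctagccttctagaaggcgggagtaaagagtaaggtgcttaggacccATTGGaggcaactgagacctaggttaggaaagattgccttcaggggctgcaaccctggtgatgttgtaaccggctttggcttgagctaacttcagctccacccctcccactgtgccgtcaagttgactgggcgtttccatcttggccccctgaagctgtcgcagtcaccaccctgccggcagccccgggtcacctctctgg
Tuba8, chr6:121210484-121210783, plus strand: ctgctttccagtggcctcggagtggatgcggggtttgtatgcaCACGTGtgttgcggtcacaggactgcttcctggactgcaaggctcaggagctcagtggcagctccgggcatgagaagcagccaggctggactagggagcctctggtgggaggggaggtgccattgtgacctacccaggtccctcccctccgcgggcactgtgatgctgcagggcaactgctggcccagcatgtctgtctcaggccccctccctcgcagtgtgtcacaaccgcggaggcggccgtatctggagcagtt
Tubb2a, chr13:34077959-34078258, minus strand: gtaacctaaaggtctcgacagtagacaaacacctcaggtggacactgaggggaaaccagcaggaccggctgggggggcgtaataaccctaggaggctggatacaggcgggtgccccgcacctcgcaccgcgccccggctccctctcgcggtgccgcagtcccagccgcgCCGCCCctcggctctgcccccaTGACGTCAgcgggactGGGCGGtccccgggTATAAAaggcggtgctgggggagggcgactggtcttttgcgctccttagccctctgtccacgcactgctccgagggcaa

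The Tubb4b window held 5 CCAAT matches, Tuba1c 1, Tuba8 and Tubb2a 0. The Tubb2a window was the one with TGACGT, in 2 overlapping matches at 59 and 57 bases before the start, and it had TATAAA at 29 bases before it. In the Tubb4b window TATAAA lay 19 bases after the start. A match is a string of letters in this window and not a shown binding site.

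Genes around the tubulins were taken from 11 lists chosen by role. Of their 195 genes 170 were tested, and 0 passed an adjusted p under 0.05 in edgeR, where 0.497% of all genes did. At an unadjusted p under 0.05, 27 were higher (5.58% of all genes were), 11 of them in the actin cytoskeleton list, and 8 lower (6.24%). DESeq2 called 6 of the 170 (3.38% of all genes) and limma-voom 0 (0.712%). In what follows, adjusted p-values are Benjamini-Hochberg values over all 13483 genes from edgeR's quasi-likelihood test.

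Among the remaining tubulins Tubg1 had the highest level, and the others were at no more than 14.0 CPM in any library. Tubg1, the gamma tubulin that nucleates microtubules at the centrosome, was at 40.4 ± 12.2 and 49.9 ± 6.63 CPM (log2 fold change 0.31, SE 0.21, adjusted p = 0.629). Tube1, the epsilon tubulin of centrioles, was at 6.10, 4.63 and 3.48 CPM in control and 10.5, 13.7 and 8.10 CPM with IGF-1 (1.18, SE 0.33, adjusted p = 0.174). Its groups did not overlap, and DESeq2 called it (adjusted p = 0.0308). Tubd1 (-0.07, SE 0.41) and Tubb4a (0.97, SE 0.73) did not pass. The neuronal Tubb3 had 0, 62 and 10 counts in control and 1, 28 and 27 with IGF-1, and Tubg2 0 to 54. Tuba3b and Tubal3 had 1 count each over all libraries, and Tuba3a and Tubb1, the platelet isotype, had 0.

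The medians of the folding lists were nearer to 0 than that of the tubulins, which were picked with their difference in view. Gene by gene the ranges overlapped, with Pfdn1 (0.38) above Tuba1a (0.20). Whether folding genes and tubulins differ was not tested. All 8 TRiC subunits were positive, with a median of 0.19. Tcp1 had means of 195 ± 2.69 and 243 ± 15.8 CPM (0.32, SE 0.11, adjusted p = 0.286), and Cct8 of 414 ± 17.3 and 509 ± 20.4 CPM (0.30, SE 0.11, adjusted p = 0.298). The cofactor and prefoldin list had a median of 0.03 over 13 genes, 8 of them positive, with Pfdn1 (0.38, SE 0.15, adjusted p = 0.343) and Vbp1 (0.25, SE 0.12, adjusted p = 0.422) at the smallest p.

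Genes of tubulin mRNA autoregulation had a median of -0.04 over 13, of which 5 were positive. The adaptor Ttc5 was at 111, 83.1 and 111 CPM in control and 75.8, 71.5 and 93.9 CPM with IGF-1. The groups overlapped (-0.34, SE 0.16, adjusted p = 0.441). The CCR4-NOT subunits Cnot2 (0.35, SE 0.12, adjusted p = 0.290) and Cnot7 (0.38, SE 0.14, adjusted p = 0.319) had positive values, and SCAPER's gene Scaper was at -0.19 (SE 0.18).

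Enzymes that modify the tubulin tails had a median of 0.01 over 18 tested genes. Tpgs2 (51.1 ± 10.8 and 74.1 ± 7.99 CPM, 0.54, SE 0.17, adjusted p = 0.240) and Ttll1 (37.9 ± 4.50 and 50.2 ± 4.91 CPM, 0.41, SE 0.15, adjusted p = 0.309), members of the tubulin polyglutamylase complex, had the smallest p, and neither passed. Destabilising and severing proteins had a median of -0.05 over 8, with Fignl1 at 1.18 (SE 0.49, adjusted p = 0.366), Kif2a at 0.17 (SE 0.15) and the tubulin-sequestering Stmn1 at 11.8 ± 2.44 and 9.16 ± 5.07 CPM (-0.37, SE 0.38). Leaving out IGF-1 replicate 2 gave -0.05 for Stmn1, and leaving out IGF-1 replicate 3 gave -0.88.

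Proteins that ride on or anchor microtubules had list medians below 0. Microtubule binding and plus end genes had a median of -0.05 over 20, with the end-binding Mapre1 at 224 ± 4.88 and 275 ± 20.9 CPM (0.30, SE 0.11, adjusted p = 0.319) and Clasp2 at -0.52 (SE 0.21, adjusted p = 0.361). The gamma tubulin and centrosome list had a median of -0.13, and 9 of 12 were negative, including the scaffold genes Akap9 (-0.49, SE 0.19, adjusted p = 0.319) and Pcnt (-0.45, SE 0.18, adjusted p = 0.371). Transport motors had a median of -0.01 over 31. Among them the kinesin light chain Klc4 was at 36.5, 35.5 and 42.6 CPM in control and 23.6, 20.3 and 23.1 CPM with IGF-1 (-0.77, SE 0.16, adjusted p = 0.0787). It had no overlap and was called by DESeq2 (adjusted p = 0.00247). Dynlt3, a dynein light chain, was at 0.42 (SE 0.15, adjusted p = 0.290).

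The actin cytoskeleton was the list whose median came nearest to that of the tubulins. Of 23 genes 21 were positive, with a median of 0.37, and the summed level was 22482 to 28139 CPM in control and 28193 to 39635 CPM with IGF-1. Actg1 had means of 1037 ± 123 and 1413 ± 108 CPM, a log2 fold change of 0.45 (SE 0.12, adjusted p = 0.171). Actr3, of the ARP2/3 actin-nucleating complex, had 512 ± 28.5 and 714 ± 1.19 CPM, or 0.48 (SE 0.11, adjusted p = 0.0940). The filamin Flna had 339 ± 72.2 and 540 ± 14.9 CPM, or 0.67 (SE 0.15, adjusted p = 0.106). DESeq2 called these 3 (adjusted p = 0.0183, 0.00110 and 0.000990) and also Tmsb4x, the most abundant gene of the list. Actb was at 2193 ± 201 and 2838 ± 833 CPM, and IGF-1 replicate 3 lay below the controls (0.37, SE 0.19, adjusted p = 0.489). Whether tubulin and actin differences differ was not tested.

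Cell division genes were low. Mki67 was at 6.38 ± 1.98 and 9.24 ± 2.98 CPM (0.53, SE 0.34, adjusted p = 0.602), Kif11 at 0.407 ± 0.334 and 2.46 ± 1.11 CPM (2.58, SE 0.95, adjusted p = 0.309) and Birc5 at 1.75 ± 0.970 and 3.73 ± 0.133 CPM (1.09, SE 0.51, adjusted p = 0.441). The median of the 18 was 0.34, with 15 positive, and it was 0.06 over the 5 of them with a mean of at least 5 CPM. The summed level of the list, whose most abundant gene was Pcna, overlapped between the groups, at 204 to 254 CPM in control and 238 to 255 CPM with IGF-1. In 4 of the 18, Kif11 and Birc5 among them, the IGF-1 libraries all lay above the controls, where 8.81% of all genes did. In 0 they all lay below.

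**Figure D4:**
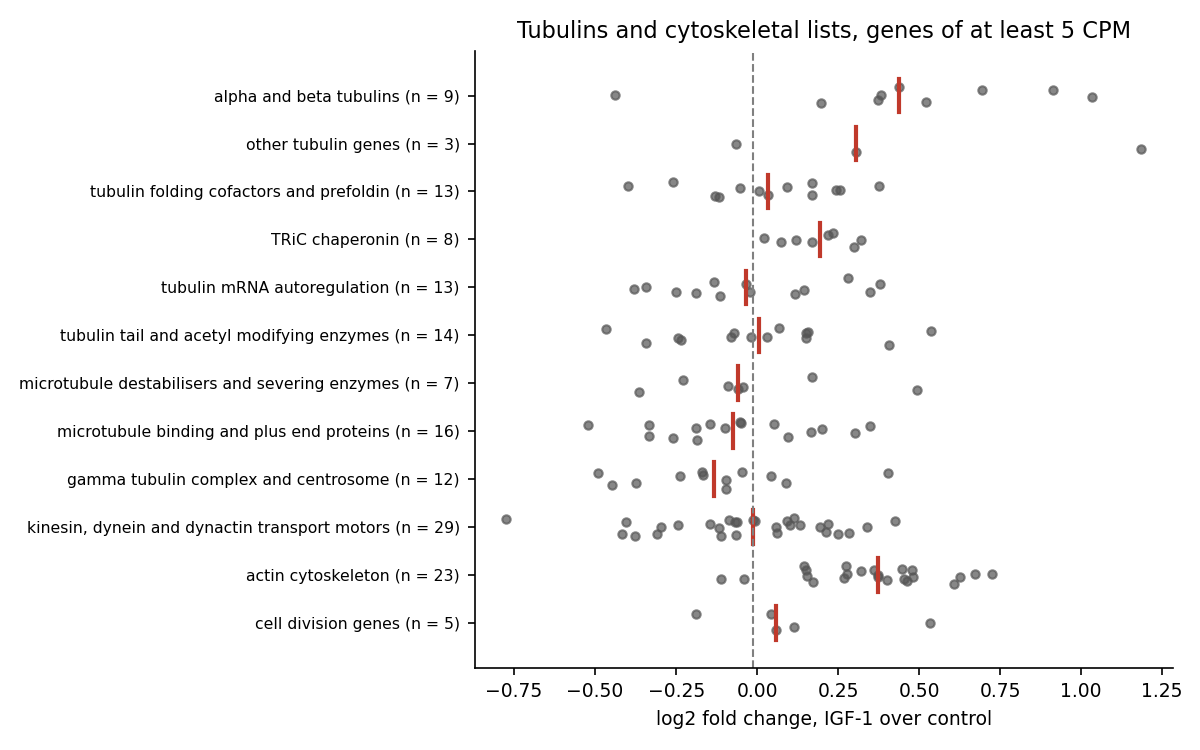
Log2 fold change of IGF-1 over control for each tested gene with a mean of at least 5 CPM, by list, with a red bar at the median of the genes shown and a dashed line at the median of all genes (-0.01). The tubulins (median 0.44) and the actin list (0.37) lie to the right, and the TRiC subunits (0.19) are nearer to 0.

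Of 8359 named genes with a mean of at least 10 CPM, those whose log2 CPM followed the mean profile of the 9 tubulins most closely over the 6 libraries were Dph6 (r = 0.99), Ttll1 (0.98), Gpr157 (0.98), Sar1a (0.98) and Arcn1 (0.98). Dph6 belongs to diphthamide synthesis, and Sar1a and Arcn1 to the COPII and COPI vesicle coats. Their log2 fold changes were 0.69 (SE 0.17), 0.41, 0.33, 0.20 and 0.34 in that order, and none of the 5 passed the test (edgeR adjusted p from 0.124 to 0.542). These coefficients are a description over 6 libraries that share the group difference. With the group means removed, r was 0.95, 0.94, 0.94, 0.94 and 0.88 in that order, for genes picked by the first r.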

How the data were processed

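Full-length cDNA libraries of sorted ILC3s were made by the SMART-Seq HT method, per the labels' protocols. Sample titles gave the 2 groups, with 3 libraries in each. The authors deposited raw read counts per gene. The tools listed were fastp (0.23.2), HISAT2 (2.2.1), SAMtools (1.15.1), featureCounts (1.5.3) and build GRCm39, per the submitters' processing notes. The annotation release, strandedness and multi-mapping rule were not stated. From these counts, edgeR 4.0.16 (R 4.3.3) filterByExpr by group (minimum count 10, minimum total 15) kept 13483 of 33157 rows and removed 0.0806% of counts. Differences were tested with TMM, estimateDisp, glmQLFit and glmQLFTest, group as the only term, Benjamini-Hochberg adjusted at 0.05. The SE is the log2 fold change divided by the square root of F. The test was checked on simulated data with log2 changes larger than those of most tubulins here. Smaller changes were not simulated. Exon lengths and coding sequences came from GENCODE M21, promoter windows from RefSeq, both of GRCm38. Members, lists and naming rules were chosen with earlier results of these data known: named genes are all tubulins with a count, the 2 smallest p-values per list, Ttc5, Stmn1, Tcp1, Actb, Actg1, Mki67, Tubg1 and the 5 genes of most similar profile, predicted gene models left out. Scaper, Pcna, Pfn1, Cfl1, Tmsb4x, Neat1, Malat1, several marker genes and the motifs TATAAA and TGACGT were named after their values or sequences were seen. With counts from PCR reads without molecular identifiers, no counting interval is given.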

Additional observations from a re-analysis of the deposited data

How the results depend on the processing

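Under the alternatives (replicate block, RLE, upper quartile and total count scaling, DESeq2, limma-voom, 2 other filters and each library left out), the 126 recomputed log2 fold changes of the 9 tubulins kept their signs, and the median stayed between 0.36 and 0.59. The 3 calls of Tuba1c, Tuba8 and Tubb6 held with the 3 scalings, with limma-voom and with both filters, and became 5 with DESeq2, which added Tubb4b and Tubb5. They became 0 at an adjusted p under 0.01. Genes called higher and lower over the whole table were 31 and 36, 171 and 258 with no low count filter, 63 and 115 with the filter of 10 CPM in 3 libraries, 200 and 256 with DESeq2, 60 lower with limma-voom, 57 and 87 at an adjusted p under 0.1, and 1 and 1 under 0.01. Leaving out 1 library gave 0 to 24 higher and 0 to 31 lower genes, and 0 to 2 tubulins. With the replicate number as a block, 3 genes were higher, 5 lower and 0 tubulins called; the numbers share no stated source, and deviations of same-numbered libraries correlated at -0.24, -0.11 and 0.19. Among the other named genes, Tubb3 changed from -0.45 to 0.42 with the block and 0.59 with limma-voom, and ranged from -1.04 to 1.88 with 1 library left out (0.11 without IGF-1 replicate 1, 1.88 without control replicate 2). Tubd1, at -0.07, ranged from -0.66 to 0.23 with 1 library left out and was positive without control replicate 1, IGF-1 replicate 2 or IGF-1 replicate 3. Leaving out 1 library also moved by over 1.5 times Tubg1 (0.14 to 0.57), Tubb4a (0.55 to 1.73), Tubg2 (0.09 to 2.74), Kif2a (0.07 to 0.28), Stmn1 (-0.88 to -0.05), Clasp2 (-0.71 to -0.30), Pcnt (-0.62 to -0.28), Dynlt3 (0.27 to 0.53), Actb (0.22 to 0.60), Mki67 (0.30 to 0.81) and Birc5 (0.87 to 1.64). The cause was not tested. Both other filters called Klc4 and Flna, and no filter also called Tubb4b, Actr3, Pfn1, Cfl1 and Tmsb4x. With 3 libraries per group, calls rest on the spread shared across genes.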
